A study of Mus musculus with 2 samples.

Results

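The genes of transforming growth factor-beta (TGF-beta) and bone morphogenetic protein (BMP) signalling followed here were 10 genes taken by symbol from the 32285 genes of the count table. They were the ligand genes Tgfb1, Tgfb2, Tgfb3, Bmp4 and Gdf10, the type 1 receptor genes Tgfbr1 and Bmpr1a, the type 2 receptor genes Tgfbr2 and Bmpr2, and the co-receptor gene Tgfbr3. The question was which classes of nuclei in brown fat carried RNA of these ligands and receptors, and how each level differed between a wild-type (WT) and a knockout (KO) library.

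Ligands of this family are secreted proteins. A ligand brings type 2 and type 1 receptor kinases together, the type 2 receptor activates the type 1 receptor, and that kinase phosphorylates SMAD proteins, which enter the nucleus and act on transcription. TGF-beta ligands are secreted in a latent form that has to be activated outside the cell. In adipose tissue, BMP ligands are known for committing progenitors to the adipocyte fate, and TGF-beta ligands are known for holding back adipocyte differentiation and for driving fibrosis.

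Single-nucleus RNA sequencing was carried out on interscapular brown adipose tissue (BAT) of 8-week-old mice, with 1 library for each genotype. Srsf1 encodes a splicing factor. The WT library came from Srsf1 flox/flox mice, which carried the floxed alleles without Cre, and the KO library from Adipoq-Cre; Srsf1 flox/flox mice, in which Cre was driven by the adiponectin promoter, active in mature adipocytes. By the study's methods the mice were males and the controls were littermates. How many mice stood behind each library was not given in the sources used here, so a difference between the genotypes cannot be told apart from a difference between 2 libraries, and no test between them was possible. Intervals below are exact 95% intervals and cover counting error only.

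The WT library held 12846 barcodes with 93102814 unique molecular identifiers (UMIs), and the KO library 11495 barcodes with 80090208 UMIs. 52 barcode sequences occurred in both libraries. After filtering, 12771 WT and 11378 KO nuclei were kept, with a median mitochondrial share of 1.10% and 0.0489%. Nuclei were placed in classes by the summed level of marker genes, none of which was a member, and each class is named for the cell type whose markers it resembled. The classes were adipocyte (3554 WT and 2414 KO nuclei), adipose stem and progenitor cell or ASPC (390 and 1782), endothelial (2528 and 1170), mural, meaning pericyte and smooth muscle (389 and 195), and myeloid (536 and 2371). A further 1962 WT and 1695 KO nuclei carried markers of several classes and were called mixed, and 3182 and 1590 stayed unassigned. In 9 of the 10 class and library pairs every marker of the class, or all but 1, stood at least 1.5 times above its level in the other nuclei, and in WT adipocyte nuclei 10 of 12 markers did, beside free adipocyte RNA in that library. Ucp1, the uncoupling protein of brown adipocytes, measured 578 UMIs per 1000000 UMIs of the class (CPM) in WT myeloid nuclei and 4.49 in KO myeloid nuclei.

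Srsf1, the targeted gene, measured 189 CPM in WT and 60.2 in KO adipocyte nuclei, which is -1.65 as log2 of KO over WT. It was also lower in the KO library in the 4 other classes, where the log2 ratios lay between -0.75 and -0.61. Adipocyte markers in these 4 classes stood at 22.7% to 39.8% of their adipocyte level in WT and at 7.80% to 24.9% in KO. Why these classes, in which the Adipoq promoter is not known to be active, also held less Srsf1 RNA was not tested. The part of adipocyte RNA in these ratios was not tested either. Levels below are in CPM, and ratios are log2 of KO over WT. A gene was called past 2-fold at a log2 ratio of at least 1 or at most -1 with at least 50 UMIs over both libraries. UMIs were not divided by gene length, so levels are compared between classes and libraries and not between genes.

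**Figure D1:**
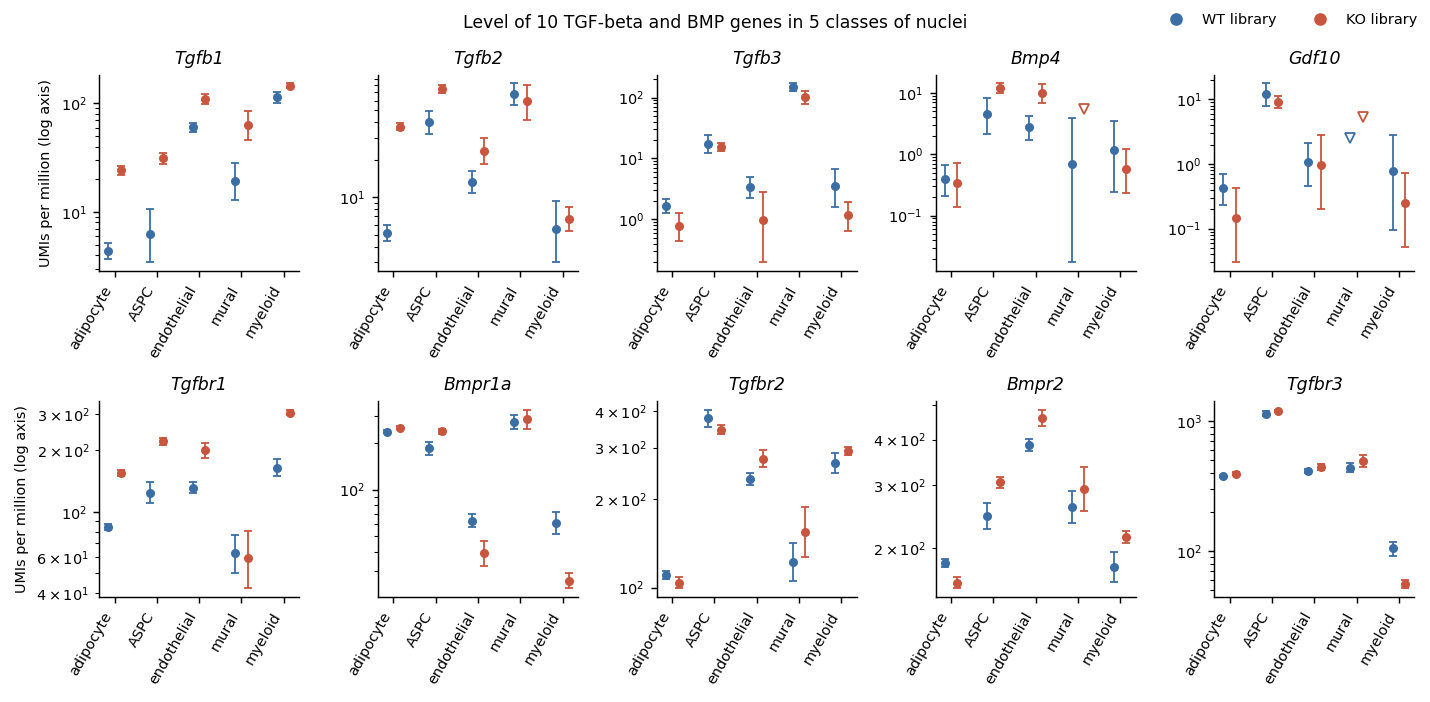
Level of each of the 10 genes in 5 classes of nuclei, in CPM on log axes that differ between panels, with WT in blue and KO in red. Points are levels, bars exact 95% counting intervals, and open triangles the upper bound where no UMI was counted. Tgfb1 stood higher in the KO library in all 5 classes, by a log2 ratio of 0.36 to 2.46.

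Among the ligands, Tgfb1 and Tgfb2 had their largest KO to WT ratios in adipocyte nuclei. For Tgfb1 the ratio in ASPC nuclei, 2.30 (1.53 to 3.19), overlapped it, so the 2 classes cannot be ranked. Tgfb1 (ENSMUSG00000002603, chr7:25687002-25705077, plus strand, GRCm38) encodes the TGF-beta ligand that immune cells are best known for. In adipocyte nuclei it measured 4.38 CPM in WT (145 UMIs, 95% interval 3.69 to 5.15) and 24.1 in KO (490 UMIs, 22.0 to 26.4). This was a 5.51-fold higher level, a log2 ratio of 2.46 with an interval of 2.19 to 2.74. Tgfb2 (ENSMUSG00000039239, chr1:186622792-186705989, minus strand), a TGF-beta ligand that depends on betaglycan for high-affinity receptor binding, measured 5.16 CPM in WT (171 UMIs, 4.42 to 6.0) and 37.1 in KO adipocyte nuclei (753 UMIs, 34.5 to 39.8). Here the KO level was 7.18-fold higher, a log2 ratio of 2.84 with an interval of 2.60 to 3.09. Neither pair of intervals overlapped. Of the 8 members with enough UMIs in adipocyte nuclei, these 2 were past 2-fold higher in KO and Tgfb3 was past 2-fold lower. Over all 15041 genes measured in adipocyte nuclei, 24.3% were past 2-fold higher and 15.9% past 2-fold lower, so the members' counts were close to the background of that class. The median ratio was 0.07 over the 8 members and 0.17 over all genes.

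The 250 bases before the transcription start of Tgfb1 and of Tgfb2 are shown because these were the ligands past 2-fold higher in KO adipocyte nuclei. They are RefSeq sequences of build GRCm38.p6 from chr7:25686752-25687001 (plus strand) and chr1:186705990-186706239 (minus strand), each printed along its gene. Capitals mark the motif TATAAA known as the core promoter box, the motif GGGCGG known to bind the factor Sp1, and the motif CACGTG known as the E-box, each searched on both strands, so that the second of them reads CCGCCC where it lies on the other strand.
Tgfb1: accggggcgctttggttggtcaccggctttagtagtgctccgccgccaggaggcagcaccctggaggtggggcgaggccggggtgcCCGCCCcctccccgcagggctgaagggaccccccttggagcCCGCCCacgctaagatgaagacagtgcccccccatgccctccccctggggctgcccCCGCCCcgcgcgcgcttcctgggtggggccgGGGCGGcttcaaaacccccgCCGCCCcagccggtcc
Tgfb2: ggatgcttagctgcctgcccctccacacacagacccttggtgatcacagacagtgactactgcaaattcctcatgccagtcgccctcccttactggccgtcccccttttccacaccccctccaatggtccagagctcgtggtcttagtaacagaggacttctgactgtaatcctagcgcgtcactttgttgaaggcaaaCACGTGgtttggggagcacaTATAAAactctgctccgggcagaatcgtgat

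The window of Tgfb1 held 5 GGGCGG and neither other motif, with 75.2% of its bases G or C. The window of Tgfb2 held 1 TATAAA starting 31 bases before the start and 1 CACGTG starting 51 bases before it, no GGGCGG, and 53.6% G or C. Among 32851 promoter windows of the same length, 32.7% held GGGCGG, 12.4% TATAAA and 6.02% CACGTG, and the median G or C content was 52.4%. No matches overlapped. A match is a description of the letters and not a shown binding site. The sequence table held entries for 8 of the 10 members.

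Counted per nucleus, 3.97% of WT and 17.9% of KO adipocyte nuclei had a UMI of Tgfb2, at median depths of 7307.5 and 6443.5 UMIs. In myeloid nuclei, the class with the lowest KO level of Tgfb2, the shares were 2.05% in WT and 2.32% in KO, at median depths of 3967.5 and 4213 UMIs. With each nucleus thinned to 1000 UMIs, which left out 37 WT and 67 KO adipocyte nuclei, the adipocyte shares were 0.455% and 3.41%, and the myeloid shares 0.835% and 0.392%. At equal depth the WT intervals overlapped, at 0.260% to 0.738% in adipocyte and 0.228% to 2.12% in myeloid nuclei. The KO intervals, 2.7% to 4.2% and 0.180% to 0.743%, did not overlap. Since the myeloid class was picked for its low KO level, the KO difference follows in part from that choice. Whether the myeloid UMIs of Tgfb2 were free RNA was not tested. For Tgfb1 the shares in adipocyte nuclei were 3.29% in WT and 13.5% in KO, or 0.569% and 1.88% after thinning.

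Adipocyte nuclei of the 2 libraries fell mostly into different clusters, cluster 4 in WT with 81.0% of them and cluster 22 in KO with 79.7%. In cluster 4 Tgfb1 measured 2.46 CPM and Tgfb2 4.84, and in cluster 22 they measured 12.2 (10.4 to 14.2) and 36.1 (33.1 to 39.4). The remaining KO adipocyte nuclei included 285 of cluster 13, of which 80.0% were called doublets by Scrublet, and here Tgfb1 measured 55.2 and Tgfb2 36.5 CPM. These 285 nuclei held 272 of the 490 Tgfb1 UMIs of KO adipocyte nuclei. Another 120 KO adipocyte nuclei, in cluster 12, measured 14.9 (4.85 to 34.8) for Tgfb1 and 110 (77.8 to 152) for Tgfb2. The Tgfb2 intervals of clusters 22 and 13 overlapped and that of cluster 12 lay above both, and the Tgfb1 interval of cluster 13 lay above those of the other 2. Without the nuclei that Scrublet called, the log2 ratio of Tgfb1 in adipocyte nuclei was 1.61. Scrublet called 2391 of the kept KO nuclei and none of the WT nuclei, so it did not work as a doublet caller in the WT library and no nuclei were removed by it.

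RNA of other cells in the adipocyte class was read from its marker lists. The 10 myeloid markers together measured 131 CPM in WT and 326 in KO adipocyte nuclei. Set against myeloid nuclei of the same library, Tgfb1 in adipocyte nuclei stood at 3.85% of its myeloid level in WT and 16.5% in KO, while the myeloid markers stood at 2.79% and 6.55% of theirs. Tgfb2 in KO adipocyte nuclei stood at 49.8% of its ASPC level, where ASPC markers stood at 4.30%. The part of myeloid RNA in the Tgfb1 level was not tested beyond these values.

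Outside adipocytes, Tgfb1 was highest in myeloid nuclei in both libraries, at 114 CPM in WT (101 to 128) and 146 in KO (139 to 153), a log2 ratio of 0.36. Endothelial nuclei were next with 60.6 in WT and 111 in KO, a log2 ratio of 0.87 (0.66 to 1.08). Mural nuclei followed with 19.5 in WT and 63.5 in KO, a log2 ratio of 1.71 (0.99 to 2.45) from 28 and 43 UMIs. In ASPC nuclei Tgfb1 measured 6.32 in WT, from 14 UMIs, and 31.1 in KO, a log2 ratio of 2.30 (1.53 to 3.19), or 0.73 with classes taken from Leiden clusters. The order of the 5 classes was the same in both libraries, and only the WT intervals of ASPC and adipocyte nuclei overlapped between neighbours in it. The share of ASPC nuclei with a UMI of Tgfb1 was 3.33% in WT and 12.6% in KO. Within cluster 8, which held most ASPC nuclei of both libraries, Tgfb1 measured 5.68 in WT and 21.1 in KO. Another 154 KO ASPC nuclei lay in cluster 13, and 87.7% of them were called doublets by Scrublet. They held 139 of the 327 KO UMIs, at 74.6 CPM. Myeloid markers summed to 116 CPM in WT and 312 in KO ASPC nuclei, 118 and 241 in mural nuclei and 152 and 319 in endothelial nuclei, and their part in the Tgfb1 ratios was not tested.

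Tgfb2 had a different set of sources. Its WT level was highest in mural nuclei at 67.5 CPM (54.7 to 82.3), followed by ASPC nuclei at 40.1 (32.2 to 49.4). In KO the ASPC level was 74.4 (69.3 to 79.8) and the mural level 59.1 (42.2 to 80.5), and these intervals overlapped. Tgfb2 was the single member whose highest class was not the same in both libraries. The log2 ratio was 0.89 (0.57 to 1.22) in ASPC nuclei, 0.83 (0.38 to 1.28) in endothelial nuclei, -0.19 (-0.76 to 0.35) in mural nuclei and 0.29 (-0.54 to 1.22) in myeloid nuclei, none past 2-fold. The mural ratio turned to 1.42 with classes taken from Leiden clusters. The ASPC ratio was past 2-fold with Leiden clusters (1.61), as a mean over nuclei (1.13) and with a smaller lead (1.02). The endothelial ratio was past it with Leiden clusters (1.17), a smaller lead (1.07) and the lowest class subtracted (1.06), and was 0.19 with a larger lead. Adipocyte nuclei ranked lowest in WT, with an interval that overlapped that of myeloid nuclei, and in the middle in KO, above endothelial and myeloid nuclei with intervals that did not overlap.

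Tgfb3 (ENSMUSG00000021253, chr12:86056745-86079041, minus strand), a TGF-beta ligand known for its part in palate fusion, had its highest level in mural nuclei. They held 149 CPM in WT (214 UMIs) and 102 in KO (69 UMIs), a log2 ratio of -0.55 (-0.96 to -0.15), which turned to 0.42 with classes taken from Leiden clusters. ASPC nuclei came next at 17.6 and 15.4, and the other 3 classes lay between 0.788 and 3.55. In adipocyte nuclei Tgfb3 measured 1.66 in WT and 0.788 in KO, from 55 and 16 UMIs, a log2 ratio of -1.08 (-1.98 to -0.25), which was -0.37 with a smaller lead between classes. These levels were 1.12% and 0.773% of the mural levels, and mural markers in adipocyte nuclei stood at 1.25% and 1.61% of theirs. Between the libraries the marker percentage was higher in KO and that of Tgfb3 lower, and the part of mural RNA in the adipocyte level was not tested. The gene is overlapped on the opposite strand by Ttll5, with 6054 UMIs in WT and 5835 in KO, and whether the counting kept the strands apart was not given in the sources used here.

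Bmp4 (ENSMUSG00000021835, chr14:46383520-46390669, minus strand) encodes a BMP ligand of adipocyte commitment, and Gdf10 (ENSMUSG00000021943, chr14:33923587-33937983, plus strand) encodes BMP3B, a secreted family member that adipogenesis-regulating stromal cells are known to express. Both were counted in few UMIs. Bmp4 measured 4.51 CPM in WT ASPC nuclei (10 UMIs) and 12 in KO (126 UMIs), a log2 ratio of 1.41 (0.48 to 2.51). In endothelial nuclei it measured 2.78 in WT (21 UMIs) and 10.0 in KO (31 UMIs), a log2 ratio of 1.85 (1.00 to 2.72). The ASPC and endothelial intervals overlapped in each library, and adipocyte, mural and myeloid nuclei held between 0 and 13 UMIs of Bmp4. The shares of nuclei with a UMI of Bmp4 were 2.05% and 5.61% in ASPC nuclei and 0.310% and 0.249% in adipocyte nuclei, WT before KO, and thinned to 1000 UMIs they were 0.546% and 1.37% in ASPC nuclei.

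Most of the endothelial Bmp4 UMIs in KO lay in a small cluster. In cluster 2, with 241 WT and 95 KO endothelial nuclei, Bmp4 measured 6.43 CPM in WT (5 UMIs, 2.09 to 15.0) and 63.7 in KO (20 UMIs, 38.9 to 98.4). In cluster 14, with 206 WT and 52 KO endothelial nuclei, it measured 9.71 in WT (8 UMIs) and 32.2 in KO (7 UMIs, 12.95 to 66.4). That KO interval overlapped the KO interval of cluster 2. Most endothelial nuclei were in cluster 3 in WT (62.4%) and cluster 16 in KO (82.9%), where Bmp4 measured 0.971 and 1.35. These clusters were looked at after their values were seen, and the counts are small.

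Gdf10 was highest in ASPC nuclei in both libraries, at 12.2 CPM in WT (27 UMIs, 8.03 to 17.7) and 9.13 in KO (96 UMIs, 7.40 to 11.2). The log2 ratio was -0.42, with an interval of -1.04 to 0.26 that held 0. Mural nuclei had no UMI of Gdf10, where 3 counts would be 2.09 CPM in WT and 4.43 in KO, and the exact 95% upper bounds are 2.57 and 5.45 CPM. The other 3 classes held 2 to 14 UMIs each.

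For the counts over all members, ASPC nuclei had 10 members measured, of which Tgfb1 and Bmp4 were past 2-fold higher and 0 past 2-fold lower, beside 7.24% of all genes higher and 13.1% lower. Endothelial nuclei had 8 measured, with Bmp4 past 2-fold higher and 0 lower, beside 4.62% and 15.4% of all genes. Mural nuclei had 8 measured, with Tgfb1 past 2-fold higher and 0 lower, beside 5.70% and 14.7%. Myeloid nuclei had 7 measured, with 0 past 2-fold higher and Bmpr1a past 2-fold lower, beside 5.15% and 13.9%. With at most 2 members past the fold in any class and direction, these counts are too small to set the members apart from all genes. The median ratio of the members was 0.34, 0.43, 0.11 and 0.27 in these classes, and that of all genes -0.02, -0.03, 0.02 and -0.03.

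**Figure D2:**
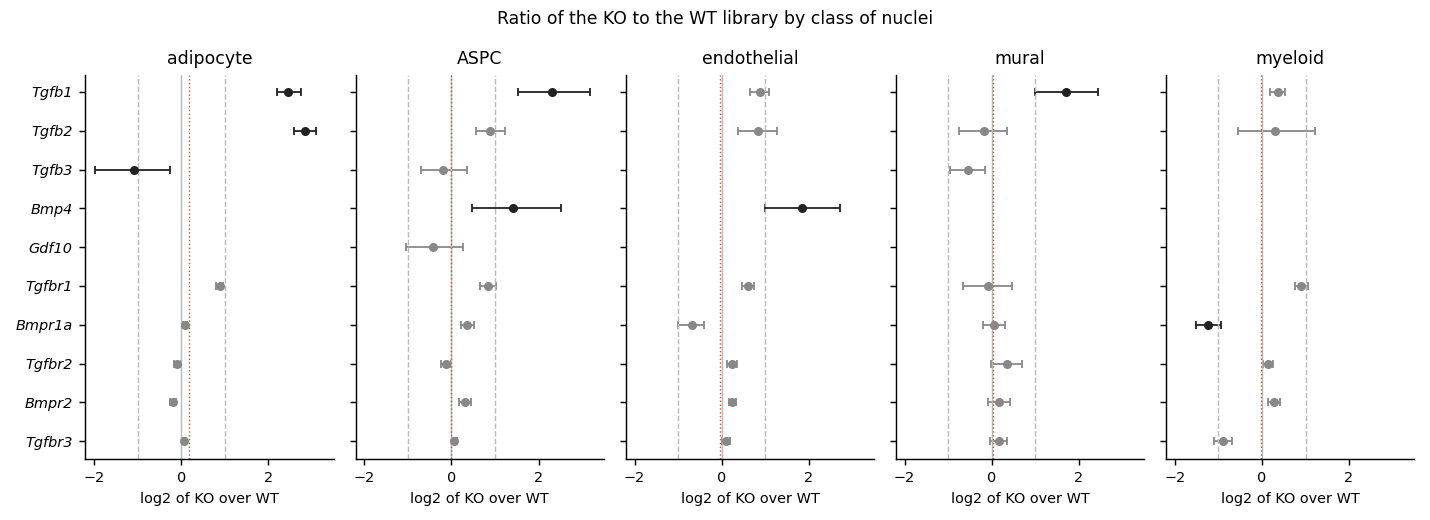
Log2 ratio of KO to WT for each of the 10 genes in 5 classes of nuclei, with exact 95% counting intervals and dashed lines at 2-fold, for genes with at least 50 UMIs in the class. Tgfb1 and Tgfb2 in adipocyte nuclei, at 2.46 and 2.84, lie furthest to the right, and the type 2 receptor genes lie within 0.34 of 0.

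The type 1 receptor genes differed from each other. Tgfbr1 (ENSMUSG00000007613, chr4:47353222-47414931, plus strand) encodes the kinase that TGF-beta ligands signal through. Its level was 84.2 CPM in WT and 155 in KO adipocyte nuclei, a log2 ratio of 0.88 (0.80 to 0.95). In ASPC nuclei it measured 124 and 221, a log2 ratio of 0.83 (0.65 to 1.02), and in endothelial nuclei 131 and 200, a log2 ratio of 0.61 (0.46 to 0.75). Myeloid nuclei had the highest level in both libraries, 164 in WT and 306 in KO, a log2 ratio of 0.90 (0.75 to 1.05). Mural nuclei had the lowest, 62.6 and 59.1, a log2 ratio of -0.08 (-0.66 to 0.47). Tgfbr1 was thus higher in KO in 4 of the 5 classes by more than the counting interval, and past 2-fold in none of them. With the level of the lowest class subtracted it was past 2-fold in these 4 classes, at 2.15 in adipocyte, 1.40 in ASPC, 1.04 in endothelial and 1.28 in myeloid nuclei, and with Leiden clusters in myeloid nuclei at 1.06. That lowest class was mural, at 62.6 CPM in WT beside 84.2 in adipocyte nuclei. Most of the WT adipocyte level was therefore subtracted, and the 2.15 rests on a small remainder. In cluster 4 of WT and cluster 22 of KO adipocyte nuclei Tgfbr1 measured 79.0 and 131.

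Bmpr1a (ENSMUSG00000021796, chr14:34410734-34503341, minus strand) encodes a type 1 receptor for BMP ligands. It was highest in mural nuclei, at 272 CPM in WT and 284 in KO, and close to that in adipocyte nuclei, at 237 and 251, with log2 ratios of 0.06 and 0.09. Set against the class median over all genes, the adipocyte ratio was -0.08. ASPC nuclei measured 185 and 238, a log2 ratio of 0.36 (0.21 to 0.52). It was lower in KO in endothelial nuclei, 63.3 against 39.2, a log2 ratio of -0.69 (-0.99 to -0.40), and in myeloid nuclei, 61.1 against 26.0, a log2 ratio of -1.23 (-1.51 to -0.94). Those 2 classes also held adipocyte RNA that was higher in WT. In myeloid nuclei Bmpr1a stood at 25.8% of its adipocyte level in WT and 10.4% in KO, and adipocyte markers stood at 22.7% and 7.80% of theirs. In endothelial nuclei Bmpr1a stood at 26.8% and 15.6%, and adipocyte markers at 39.8% and 24.9%. In both classes the adipocyte markers therefore moved in the same direction between the libraries as Bmpr1a. The endothelial ratio turned to 0.37 with classes taken from Leiden clusters and to 2.53 with the level of the lowest class subtracted as background. That lowest class was myeloid, and its WT interval (51.8 to 71.5) overlapped the endothelial interval (57.8 to 69.3). Little of the WT level was therefore left after the subtraction.

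The type 2 receptor genes were close to each other in the 2 libraries. Tgfbr2 (ENSMUSG00000032440, chr9:116084293-116175360, minus strand), the receptor that binds TGF-beta ligands, was highest in ASPC nuclei, at 377 CPM in WT and 345 in KO, a log2 ratio of -0.13 (-0.24 to -0.02). Adipocyte nuclei had the lowest level, 110 and 104, a log2 ratio of -0.09 (-0.16 to -0.01). In endothelial nuclei it measured 234 and 275, and in myeloid nuclei 265 and 292, log2 ratios of 0.24 and 0.14. Bmpr2 (ENSMUSG00000067336, chr1:59763400-59879014, plus strand), the BMP type 2 receptor known for its part in vascular disease, was highest in endothelial nuclei, at 386 in WT and 459 in KO, a log2 ratio of 0.25 (0.16 to 0.34). In adipocyte nuclei it was 183 and 160, a log2 ratio of -0.19 (-0.25 to -0.13). Over the 5 classes the ratios of Tgfbr2 lay between -0.13 and 0.34 and those of Bmpr2 between -0.19 and 0.31.

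Tgfbr3 (ENSMUSG00000029287, chr5:107106570-107289629, minus strand) encodes betaglycan, the co-receptor that presents TGF-beta2 to its signalling receptors. ASPC nuclei measured 1140 CPM in WT and 1198 in KO, above the other 4 classes in both libraries with intervals that did not overlap. The log2 ratio was 0.07 (0.01 to 0.13) in ASPC and 0.06 (0.01 to 0.10) in adipocyte nuclei (-0.11 set against the class median), and 0.10 and 0.17 in endothelial and mural nuclei. Myeloid nuclei were lower in KO, 105 against 56.0, a log2 ratio of -0.90 (-1.11 to -0.69). Tgfbr3 in myeloid nuclei stood at 27.7% of its adipocyte level in WT and 14.2% in KO, beside the adipocyte markers at 22.7% and 7.80%.

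Summed over all nuclei of a library, the genes also followed how many nuclei each class held. In WT and KO the share of nuclei was 3.05% and 15.7% for ASPC, 4.2% and 20.8% for myeloid, 27.8% and 21.2% for adipocyte, 19.8% and 10.3% for endothelial, and 3.05% and 1.71% for mural nuclei. Over all nuclei, Tgfb1 measured 20.7 CPM in WT and 68.4 in KO, a log2 ratio of 1.73. With each class held at its WT level and given its KO share of UMIs, the ratio would have been 0.61. Tgfb2 measured 10.4 and 38.3, a log2 ratio of 1.88, against 0.35 with WT levels held. Tgfbr1 measured 98.7 and 225, a log2 ratio of 1.19, against 0.17. For these 3 genes the ratio with WT levels held was below the measured one. The same order held for Bmp4 (1.40 against 0.43), Tgfbr2 (0.49 against 0.35) and Bmpr2 (0.02 against -0.04), and Tgfbr3 was 0.16 in both. Tgfb3 (-0.54 against 0.07) and Bmpr1a (-0.22 against -0.14) showed the reverse order. Gdf10 measured 1.22 and 1.97, a log2 ratio of 0.69 (0.31 to 1.07), against 1.06 with WT levels held. That value lay inside the counting interval of the measured ratio.

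The classes that held each ligand's UMIs differed between the libraries. Of all UMIs, endothelial nuclei held 9.5% in WT and 4.22% in KO, myeloid nuclei 3.20% and 16.4%, ASPC nuclei 2.79% and 14.4%, and mural nuclei 1.81% and 0.925%. Endothelial nuclei held 27.8% of the Tgfb1 UMIs in WT and 6.83% in KO, and myeloid nuclei 17.6% and 35.1%. Mixed nuclei held 34.5% and 28.4% of the Tgfb1 UMIs and 38.7% and 29.8% of the Tgfb3 UMIs. Of the Tgfb2 UMIs, adipocyte nuclei held 20.7% in WT and 26.9% in KO, ASPC nuclei 10.8% and 27.9%, and mural nuclei 11.7% and 1.43%. The adipocyte share of Tgfb2 was higher in KO although adipocyte nuclei held 41.7% of all UMIs in WT and 27.8% in KO. Mural nuclei held 34.0% of the Tgfb3 UMIs in WT and 17.3% in KO, and ASPC nuclei 6.19% and 40.6%. ASPC nuclei also held 10.8% and 55.8% of the Bmp4 UMIs and 27.8% and 66.7% of the Gdf10 UMIs. On the receptor side, adipocyte nuclei held 50.4% and 41.3% of the Bmpr1a UMIs and ASPC nuclei 2.64% and 20.3%, and for Tgfbr3 these shares were 38.6% and 23.9% in adipocyte and 7.77% and 37.7% in ASPC nuclei. How many nuclei a class gave depends on how nuclei were isolated and called, and its part was not tested. Under the alternative settings, 90 of 100 shares of UMIs by class moved and 10 stayed the same.

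**Figure D3:**
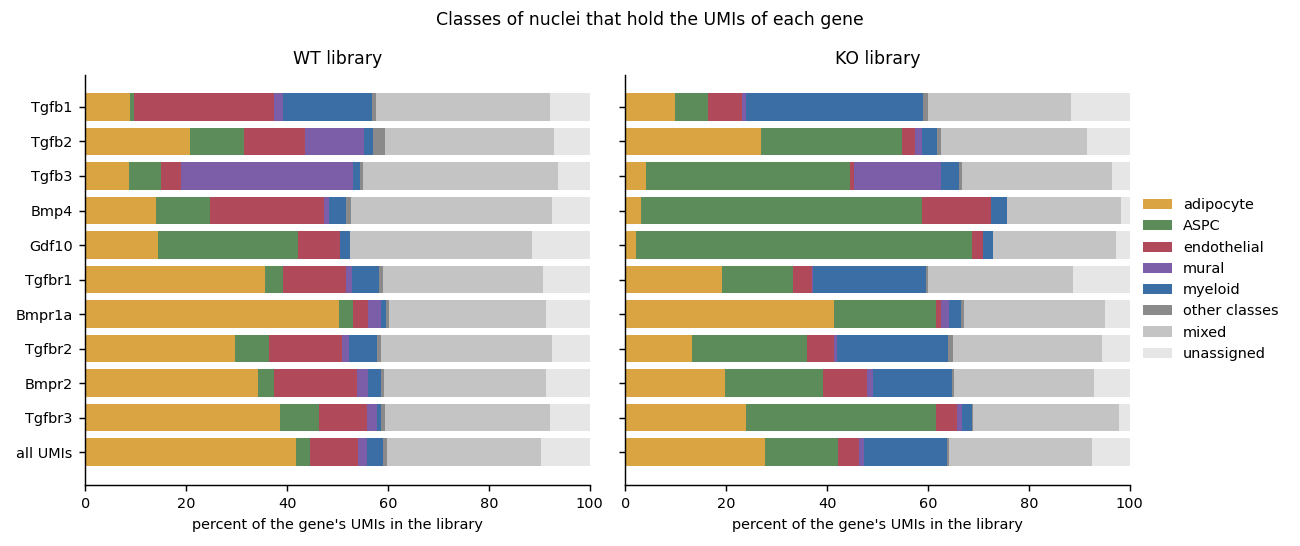
Share of the UMIs of each of the 10 genes that lay in each class of nuclei, in percent, for the WT and the KO library, with mixed, unassigned and other nuclei included. ASPC nuclei held 10.8% of the Bmp4 UMIs in WT and 55.8% in KO, beside 2.79% and 14.4% of all UMIs. Myeloid nuclei held 17.6% and 35.1% of the Tgfb1 UMIs, beside 3.20% and 16.4% of all UMIs.

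Levels also differed among the subgroups within a class, which were called by further marker sums and are given where a library held at least 50 nuclei of them. In the WT mural class, Tgfb3 measured 563 CPM (486 to 650) in 71 smooth muscle-like nuclei and 18.6 (8.04 to 36.7) in 128 pericyte-like nuclei. Tgfb2 was split the same way, at 234 (186 to 292) and 18.6. The WT mural levels of both ligands therefore came mostly from smooth muscle-like nuclei, with 190 of 214 Tgfb3 UMIs and 79 of 97 Tgfb2 UMIs. The KO library held fewer than 50 nuclei of each of these subgroups, so the mural ratios may also hold a different mix of them, which was not tested.

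Among ASPC nuclei, Gdf10 stood out in the 97 KO nuclei that resembled adipogenesis-regulating cells (Areg-like), at 86.9 CPM (62.6 to 117). It measured 0.948 (0.195 to 2.77) in the 596 KO nuclei resembling adipose stem cells (ASC-like) and 5.39 (3.29 to 8.32) in the 531 resembling preadipocytes (PreA-like). The intervals of the 3 subgroups did not overlap, and all 3 come from 1 library. The WT library held fewer than 50 Areg-like nuclei. Tgfbr2 was higher in ASC-like than in PreA-like nuclei in both libraries, at 604 against 294 in WT and 534 against 266 in KO. Bmp4 measured 5.48 in WT and 19.6 in KO ASC-like nuclei, a log2 ratio of 1.84 (0.22 to 4.16) from 3 and 62 UMIs.

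In the myeloid class the Tgfbr1 level differed between the subgroups of the KO library, and between the libraries among nuclei in neither subgroup. It measured 446 CPM (421 to 473) in 372 KO nuclei resembling Mmp12-expressing macrophages, a subgroup with fewer than 50 nuclei in WT, and 123 in KO resident macrophage-like nuclei. Within resident macrophage-like nuclei Tgfbr1 was 104 in WT and 123 in KO, a log2 ratio of 0.24 with an interval of -0.09 to 0.59 that held 0. Myeloid nuclei in neither subgroup measured 185 in WT and 343 in KO, a log2 ratio of 0.89 (0.71 to 1.08). By cluster, the level was 145 in WT and 224 in KO in cluster 10 and 295 and 368 in cluster 6, and cluster 23, with 393 KO myeloid nuclei, measured 459. Tgfb1 differed less among these subgroups, at 126 in resident and 138 in Mmp12 macrophage-like KO nuclei, with overlapping intervals.

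**Figure D4:**
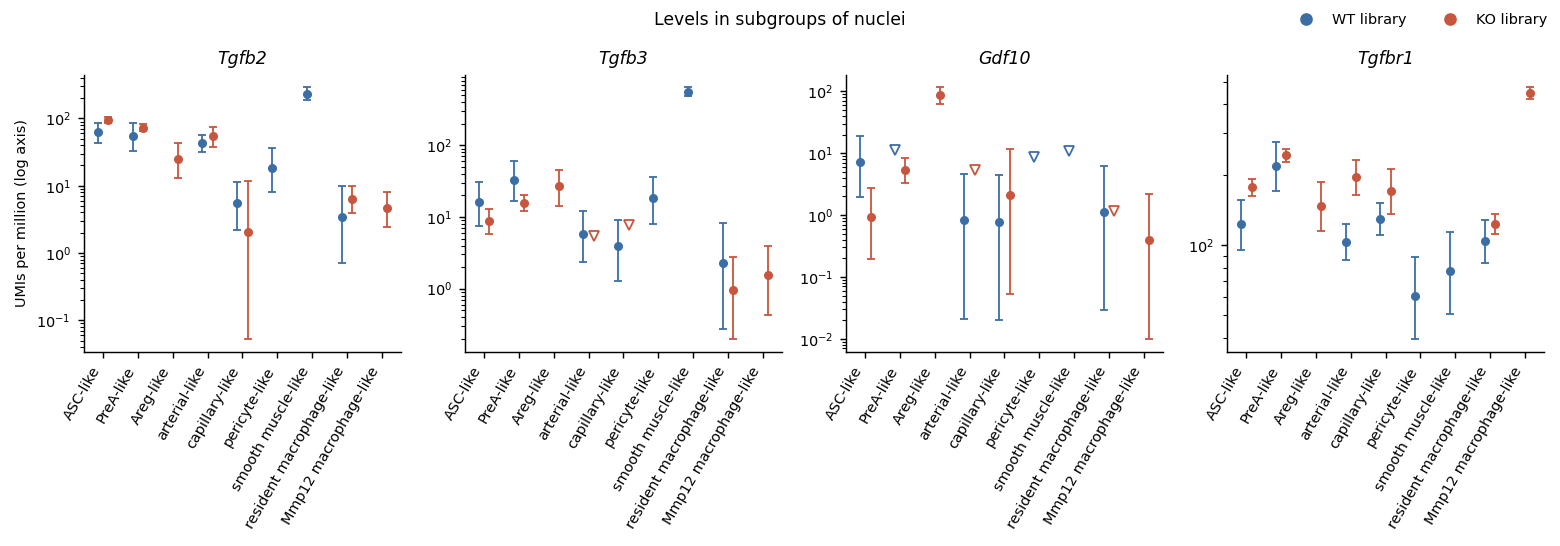
Levels of Tgfb2, Tgfb3, Gdf10 and Tgfbr1 in subgroups of nuclei, in CPM on log axes, WT in blue and KO in red, with exact 95% counting intervals, for subgroups with at least 50 nuclei in the library. Open triangles mark upper bounds where no UMI was counted. Tgfb3 peaks in WT smooth muscle-like nuclei at 563, Gdf10 in KO Areg-like nuclei at 86.9 and Tgfbr1 in KO Mmp12 macrophage-like nuclei at 446.

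The 95 other genes of the pathway lists gave the members their setting. In adipocyte nuclei 60 of them were measured, 26 past 2-fold higher in KO and 7 lower, with a median ratio of 0.64. In this class 24.3% of all genes were past 2-fold higher and 15.9% lower. Secreted antagonists, proteins that bind ligands outside the cell, had 5 of 7 measured genes past 2-fold higher and 0 lower, among them Fst at 2.57, Chrdl1 at 1.76 and Chrd at 1.71. The SMAD genes had 3 of 7 higher and 0 lower, which were the inhibitory Smad6 (32.0 to 123 CPM, log2 ratio 1.94) and Smad7 (8.99 to 27.7, 1.62) and the TGF-beta effector Smad3 (96.6 to 240, 1.31). Genes named in this paragraph for antagonists and SMADs were picked after their values were seen.

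By the rule for named genes, the highest ratios in adipocyte nuclei were those of Tgif1, a SMAD co-repressor (3.02 CPM in WT and 24.4 in KO, log2 ratio 3.02), Smurf1, a ubiquitin ligase for SMADs and receptors (68.3 and 496, 2.86), and Nrros, which anchors latent TGF-beta on myeloid cells (10.5 and 68.7, 2.71). The lowest were those of Bmpr1b, the other type 1 BMP receptor of the Bmpr1a kind (17.3 and 0.985, -4.13), Ltbp2, a latent TGF-beta binding protein family member (133 and 35.0, -1.92), and Skil, a SMAD repressor (129 and 51.6, -1.32). Nrros measured 578 in WT and 725 in KO myeloid nuclei, and the myeloid markers in adipocyte nuclei, at 131 and 326 CPM, were higher in KO as Nrros was. Their part in its adipocyte ratio was not tested. Gdf15, a distant family member made under cell stress, fell outside the rule with 15 UMIs in WT and was picked after its value was seen. It measured 0.453 and 28.0, the latter from 569 UMIs, a log2 ratio of 5.95 (5.22 to 6.80).

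In ASPC nuclei 59 pathway genes were measured, 10 past 2-fold higher and 6 lower, beside 7.24% and 13.1% of all genes, with a median of 0.32. The highest by the rule were Nrros (2.22), the BMP antagonist Chrdl1 (1.54) and Smurf1 (1.23), and the lowest was the activin-type receptor gene Acvr1c (-3.53). Acvr1c measured 187 CPM in WT and 16.2 in KO ASPC nuclei, against 642 and 366 in adipocyte nuclei. Adipocyte markers in ASPC nuclei stood at 30.2% of their adipocyte level in WT and 8.27% in KO. Nrros measured 14.4 and 67.3 in ASPC nuclei, where myeloid markers stood at 2.47% and 6.26% of their myeloid level. The part of adipocyte and myeloid RNA in these ratios was not tested.

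Endothelial nuclei had 49 measured, 2 higher and 7 lower, near the 4.62% and 15.4% of all genes, with a median of 0.15. Mural nuclei had 32 measured, 4 higher and 4 lower, beside 5.70% and 14.7% of all genes, with a median of 0.18. Myeloid nuclei had 43 measured, 1 higher and 9 lower, beside 5.15% and 13.9% of all genes, with a median of 0.08. The highest ratios by the rule were Nrros (0.92), the BMP type 1 receptor gene Acvr1 (0.84) and Smad6 (0.77) in endothelial nuclei, Smurf1 (1.47), Smurf2 (0.98) and Ltbp1 (0.98) in mural nuclei, and the activin receptor gene Acvr2b (1.27), Smurf1 (0.83) and Tgif1 (0.71) in myeloid nuclei. The lowest were Acvr1c (-2.40), Ltbp3 (-1.94) and Pmepa1 (-1.46) in endothelial nuclei, Pmepa1 (-2.45), Acvr2a (-0.03) and Acta2 (0.07) in mural nuclei, and Pmepa1 (-3.30), Acvr1c (-3.15) and Bmp6 (-1.82) in myeloid nuclei. In mural nuclei only 14 genes met the rule, so Acvr2a and Acta2 rank among the lowest with little change. Acvr1c, with 307 UMIs in WT and 14 in KO mural nuclei (-3.37), fell outside the rule there and was picked after its value was seen. Acvr1c and Pmepa1, a feedback inhibitor of TGF-beta signalling, had far higher levels in WT adipocyte nuclei, at 642 and 563 CPM, and the adipocyte markers in WT myeloid nuclei stood at 22.7% of their adipocyte level against 7.80% in KO. Their part in these low ratios was not tested. Smurf1 was higher in KO in all 5 classes, with log2 ratios of 0.74 to 2.86.

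**Figure D5:**
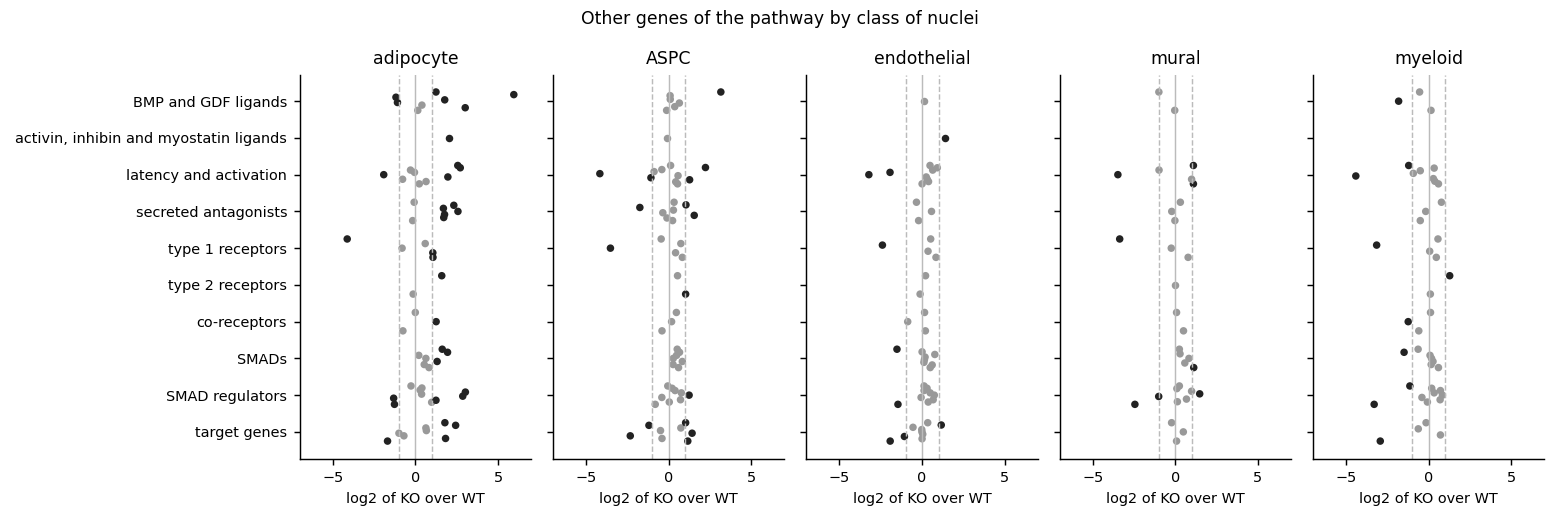
Log2 ratio of KO to WT of the other pathway genes with at least 50 UMIs over both libraries, by list and class of nuclei, black where past 2-fold and grey where not. Adipocyte nuclei have 26 black points to the right and 7 to the left of 60, beside 24.3% and 15.9% of all genes, and myeloid nuclei 1 and 9 of 43, beside 5.15% and 13.9%.

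The genes whose pattern over the 10 class and library points was most like each member were ranked by Pearson's r of log2 levels among 15157 genes, as a description over points that share libraries. They were Lrmp, Entpd1 and Dgkz for Tgfb1 (r of 0.961 to 0.972), Hmgn3, Slc6a9 and Rhbdf1 for Tgfb2 (0.963 to 0.970), and S1pr3, Crispld2 and the mural marker Mrvi1 for Tgfb3 (0.988 to 0.995). For Bmp4 they were A930012L18Rik, Meox1 and Fbln2 (0.951 to 0.963), and for Gdf10 Larp6, Bmp7 and Has2 (0.976 to 0.977). For the receptors they were Kat2b, Zfp277 and Gm15445 for Tgfbr1 (0.966 to 0.970), Pard3, Pdzrn3 and Irs1 for Bmpr1a (0.985 to 0.988), Ammecr1, Rpn1 and Gm15902 for Tgfbr2 (0.938 to 0.948), Mxd4, Ppp1r2 and 2900026A02Rik for Bmpr2 (0.956 to 0.960) and Fhl1, Setbp1 and Serpinh1 for Tgfbr3 (0.963 to 0.971). Among the members themselves, r was highest between Bmp4 and Gdf10 at 0.75 and lowest between Tgfb1 and Bmpr1a at -0.72.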

How the data were processed

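Nuclei of interscapular BAT were profiled with a droplet 3' kit in 1 WT and 1 KO library. Per the labels the deposited values are unnormalized UMI counts for each gene and barcode, made by the authors with Cell Ranger (version 5.0.0 in the labels, another version in the methods) on GRCm38. Whether intronic reads were counted was not given in the sources used here. Seurat 3.1.1 is also named in the labels.

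From these counts, nuclei were kept that had 200 or more genes and no more than 10% mitochondrial UMIs. Their UMI totals and numbers of detected genes (log scale) also lay no further than 3 median absolute deviations from the library median. Marker sums of ln(1 + UMIs per 10000) were rescaled from the library median (0) to the 99.9% quantile of both libraries (1), and a nucleus took the class of its best score if this was at least 0.25 and at least 2 times the next score. Of the nuclei near the lead of 2, 806 WT and 699 KO mixed nuclei had leads of 1.5 to 2. Doublets were scored with Scrublet in scanpy 1.11.5 and not removed. Leiden clusters came from leidenalg 0.10.2. Counts were summed per class and library, with exact Poisson, conditional binomial and Clopper-Pearson intervals (scipy 1.17.1). With 1 library per genotype no test was made, and the scripts were tested on simulated data. Shares of nuclei were also computed after thinning to 1000 UMIs.

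The members and gene lists were chosen with earlier results of these data known, and the scoring rule for classes was settled after marker scores were seen. Genes named beside the members were, in each class, the 3 highest and 3 lowest ratios among pathway genes with at least 200 UMIs and 20 in each library, and the 3 genes most like each member. Some genes that this rule names in ASPC nuclei are not reported here. Alternatives were the lead between classes, Leiden clusters in place of marker calls, no or other filters on nuclei, doublet scores, centring, a mean over nuclei, mitochondrial genes left out, the lowest class subtracted as background, and a minimum of 200 UMIs.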

Additional observations from a re-analysis of the deposited data

How the results depend on the processing

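Of 470 ratios of members under the alternatives, 401 moved by less than their counting interval, 69 moved by more and 0 ratios past 2-fold turned direction, while 20 within 2-fold changed sign. The shares of UMIs by class were less stable, with 90 of 100 moved and 10 the same. In adipocyte nuclei the log2 ratio of Tgfb2 lay between 2.68 and 3.06 and that of Tgfb1 between 1.61 and 2.55, and Tgfb3 was not past 2-fold with a smaller lead (-0.37) or Leiden clusters (-0.88). Tgfb1 in ASPC nuclei was 0.73 with Leiden clusters. Leaving out Scrublet calls was chosen after seeing the data. Members past 2-fold in endothelial nuclei (1) were 0 with a larger lead, 3 with a smaller lead, 2 with Leiden clusters, 4 with the lowest class subtracted and 0 at 200 UMIs. In mural nuclei (1) they were 2 with Leiden clusters, 2 as a mean over nuclei, 2 with the lowest class subtracted and 0 at 200 UMIs. In myeloid nuclei (1) they were 3 with Leiden clusters and 2 without Scrublet calls. With the lowest class subtracted they were 1 in adipocyte (3) and 4 in ASPC nuclei (2), and 1 in ASPC nuclei at 200 UMIs. The member past it in adipocyte nuclei after subtraction was Tgfbr1, at 2.15, where most of the WT level was taken away by the mural level. Adipocyte nuclei were themselves the lowest class for Tgfb1 and Tgfb3 in both libraries and for Tgfb2 in WT. The subtraction therefore left no ratio for these genes in adipocyte nuclei. Pathway genes past 2-fold in myeloid nuclei (10) were 6 with a larger lead, 16 with Leiden clusters, 4 with the lowest class subtracted and 5 at 200 UMIs. In mural nuclei (8) they were 23 with Leiden clusters and 3 at 200 UMIs, in ASPC nuclei (16) 8 as a mean over nuclei and 9 at 200 UMIs, and in endothelial nuclei (9) 4 at 200 UMIs. A minimum of 200 UMIs and the subtraction of the lowest class both leave fewer genes to call, and the cause of the other shifts was not tested. Bmpr1a in endothelial nuclei was -0.69, and 2.53 with the lowest class subtracted or 0.37 with Leiden clusters. The 2.53, which is among the endothelial calls counted above, rests on a WT level whose interval overlapped that of the subtracted class. Tgfb2 shared its highest class between the libraries under a larger lead, Leiden clusters and fixed limits on nuclei, where the number of members with the same highest class was 10. No paired analysis was possible because there was 1 library per genotype.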
